A study of Mus musculus with 12 samples.

Results

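The genes described are 6 parts of one signalling system: Fgfbp1, Fgf4 and the receptor genes Fgfr1, Fgfr2, Fgfr3 and Fgfr4. They were taken by their symbols from the 24015 gene rows of each library, 6 rows in all, and each had 1 row. Fgfbp1 was chosen by its measured log2 difference between genotypes, being much higher in Trim33-deficient bodies on both days, so its genotype differences are given as a description without a test. The other 5 genes were taken as its partners in the pathway. The source of the RNA was embryoid bodies, aggregates that mouse embryonic stem cells form in suspension when they begin to differentiate. Sequencing gave 12 libraries, 3 each of control bodies on day 2, Trim33-deficient bodies on day 2, control bodies on day 2.5 and Trim33-deficient bodies on day 2.5.

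All groups shared the same genetic background, per the labels. The stem cell lines were derived from an outbred strain, were homozygous for Trim33-flox and carried UbcCreERT2, a Cre recombinase under a ubiquitin promoter that acts only when tamoxifen is present. Culture used LIF and 2i and no feeder layer, and the bodies formed on low-attachment dishes. In the deficient groups 4OH-tamoxifen was given on day 1, so the gene was lost after the bodies had begun to form. The labels call the controls wildtype, and whether they received tamoxifen was not given. The replicates are described as independent pairs, without a word on what separated them. P-values therefore measure the spread between these libraries, which may be technical.

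Fibroblast growth factors (FGFs) are secreted proteins that bind receptor tyrosine kinases together with heparan sulfate, a sugar chain on the cell surface and in the matrix. The bound receptor passes the signal through the docking protein FRS2 to RAS and the kinase ERK, which switches on target genes and its own inhibitors. Fgfbp1 encodes a secreted carrier that binds FGFs and frees them from heparan sulfate in the matrix. Fgf4 encodes the FGF that pluripotent cells make themselves, and its signal through ERK helps them leave the naive state. Fgfr1 and Fgfr2 encode the receptors best known from the early mouse embryo, where Fgfr2 is prominent in extraembryonic lineages. Trim33 is a chromatin-binding regulator best known for its part in TGF-beta family signalling.

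The start regions of the carrier and of the ligand are shown because Fgfbp1 differed most between genotypes on both days, while the difference of Fgf4 was the smallest of the 6 on day 2.5. Each line gives the 250 bases before the gene's start, 5′ to 3′ on the gene's strand, from RefSeq on build GRCm38.p6, with CpG pairs in capitals. Fgfbp1 lies on the minus strand at chr5:43981800-43982049, and Fgf4 on the plus strand at chr7:144861136-144861385.
Fgfbp1: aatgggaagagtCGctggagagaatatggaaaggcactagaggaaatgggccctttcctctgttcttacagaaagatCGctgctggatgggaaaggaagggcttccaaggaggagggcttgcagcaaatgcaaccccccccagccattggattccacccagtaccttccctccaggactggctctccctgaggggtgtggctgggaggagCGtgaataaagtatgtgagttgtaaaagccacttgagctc
Fgf4: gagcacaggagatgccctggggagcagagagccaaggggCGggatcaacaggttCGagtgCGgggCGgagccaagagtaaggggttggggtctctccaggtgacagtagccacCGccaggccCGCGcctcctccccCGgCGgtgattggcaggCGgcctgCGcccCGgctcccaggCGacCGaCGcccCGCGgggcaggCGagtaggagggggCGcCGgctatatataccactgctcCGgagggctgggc
The Fgfbp1 stretch was 53.6% GC with 3 CpG pairs, and the Fgf4 stretch 71.2% GC with 21. Over the 32851 promoters in the table the medians were 52.4% GC and 6 CpG pairs, so Fgfbp1 had few CpG pairs for its base composition and Fgf4 was rich in both. The table held 5 of the 6 members. The letters CCAAT, searched on both strands like the other motifs, occurred 105 bases before the start of Fgfbp1 and 106 before that of Fgf4, and in 33.8% of all promoters. The letters GGGCGG occurred at 214 and 188 bases before the start of Fgf4 and not in Fgfbp1, and in 32.7% of all promoters. Neither stretch held TATAAA, which 12.4% of promoters held, nor CAGAC, letters that SMAD proteins bind, which 42.2% held. Only these exact letters were searched, so shorter or variant forms were not counted. The Fgf4 stretch does hold tatatata and, on the other strand, agac.

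Libraries held 10066338 to 16529627 reads assigned to genes. Values are CPM, the counts scaled to a common library size with edgeR's trimmed mean of M-values (TMM). The detection floor, set at 3 reads, was 0.178 to 0.318 CPM. Intervals and floors cover counting error or the spread between libraries only. Trim33 read 239 to 277 CPM in the 6 control libraries and 54.4 to 69.5 in the 6 deficient ones, so the genotypes did not overlap. Which exons were removed is not given in the sources used here, so these counts may include reads outside the deleted stretch. The pluripotency gene Pou5f1 was high in every group, at group means of 829 to 936 CPM. The ribosomal RNA precursor Rn45s made up 0.609 to 1.67% of assigned reads in 10 libraries. It made up 7.87% in replicate 1 of the day 2 Trim33-deficient group and 11.9% in replicate 2 of the day 2.5 control group. Genes of hypoxia and glycolysis lay high in day 2 control replicate 2, at a summed level of 6552 CPM. They also lay high in that day 2.5 control replicate 2, at 5695 CPM. These 3 libraries are called the libraries that stood apart.

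The carrier gene Fgfbp1 was lowest in control bodies of day 2 and highest in Trim33-deficient bodies of day 2.5. On day 2 the control libraries read 10.0, 6.72 and 8.81 CPM and the Trim33-deficient libraries 39.8, 31.5 and 30.8. At day 2.5 the control libraries read 18.0, 13.8 and 14.0 and the deficient libraries 127, 115 and 138. On each day every deficient library lay above every control library, and every day 2.5 deficient library lay above all 9 others. The group means were 8.51 ± 1.66 and 34.0 ± 4.98 CPM on day 2, and 15.3 ± 2.41 and 127 ± 11.4 on day 2.5 (SD, n = 3), control first. The differences of log2 level between genotypes were 1.99 ± 0.15 (SE) on day 2, or 3.96-fold, and 3.05 ± 0.13 on day 2.5, or 8.26-fold. Ranked by that difference over the 14356 genes tested, Fgfbp1 stood 6th from the highest on day 2 and 10th on day 2.5. Without the libraries that stood apart the differences were 1.73 on day 2 and 2.99 on day 2.5. These values served to pick the gene and carry no test. Bulk RNA cannot tell fewer cells of a type from less RNA per cell, for this gene or any other described here.

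**Figure D1:**
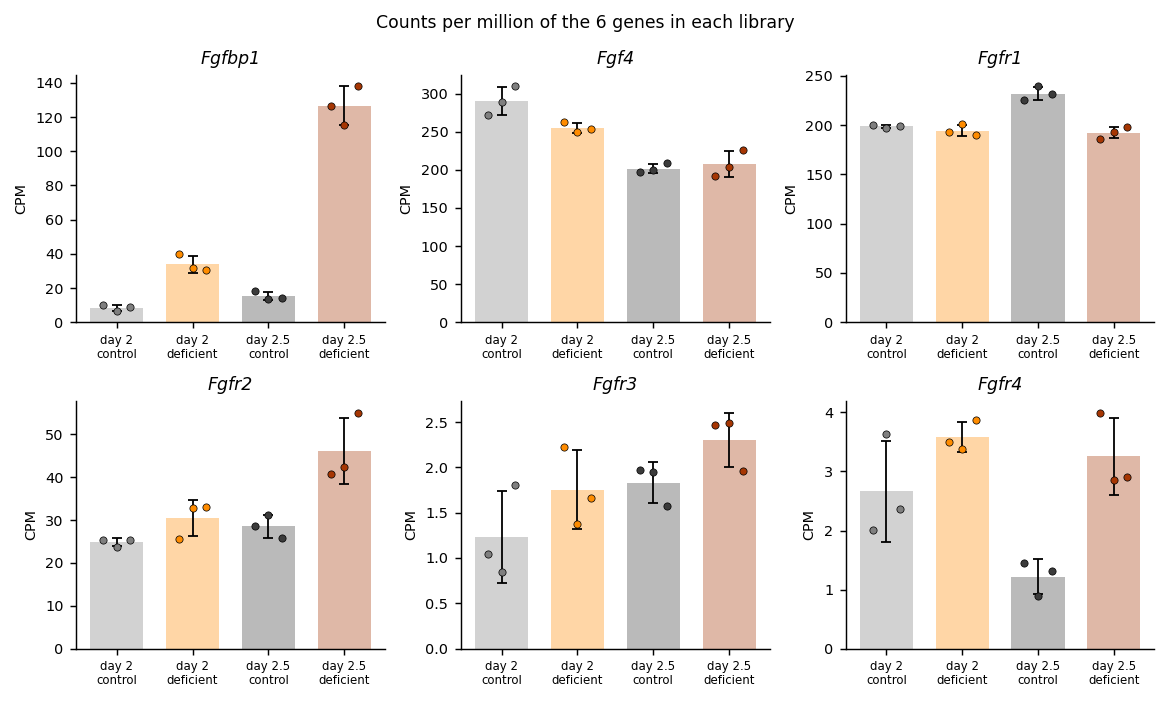
Levels of the 6 genes in each of the 12 libraries, in CPM on a linear axis that starts at 0 in each panel; points are libraries, bars are means and error bars are SDs (n = 3 per group). Fgfbp1 is the 1 panel in which the day 2.5 Trim33-deficient libraries (115 to 138 CPM) lie far above all others, while Fgf4 stays between 192 and 309.6 CPM and Fgfr1 between 186 and 239.

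The ligand gene Fgf4 was strongly expressed in every group. On day 2 it read 272, 289 and 309.6 CPM in control libraries and 262, 250.0 and 253 in Trim33-deficient ones. The deficient libraries were all lower than the controls, by a narrow margin. The difference of log2 level was -0.19 ± 0.06 (SE; 95% interval -0.31 to -0.06) and did not pass (adjusted p = 0.0569, edgeR quasi-likelihood test). The same fall passed in 6 of 23 alternatives, among them DESeq2 (adjusted p = 0.0466) and the fits without day 2 control replicate 1 (0.037), day 2.5 deficient replicate 1 (0.0479) or day 2.5 deficient replicate 3 (0.0361). On day 2.5 the control libraries read 197, 199 and 209 CPM and the deficient libraries 192, 204 and 226, and the groups overlapped. The difference was 0.04 ± 0.06, with a 95% interval of -0.09 to 0.17 (adjusted p = 0.632). A change of Fgf4 beyond 0.17 in either direction on the log2 scale thus lay outside the interval on day 2.5.

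Other FGF genes were counted too, and 11 of the 21 listed besides Fgf4 passed the filter on low counts. On day 2, 0 rose and 1 fell (0 at an unadjusted p under 0.05 in the upward direction, and 0 by DESeq2). On day 2.5, 2 rose and 5 fell. The background over all genes tested was 5.94% higher and 3.90% lower on day 2, and 22.0% higher and 20.7% lower on day 2.5. The median log2 difference of the 11 was -0.09 on day 2 and -0.43 on day 2.5, against -0.0049 and -0.0096 over all genes tested. The list was written with earlier results of these data known.

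Fgf15, a secreted FGF of the epiblast and later of the gut, fell on both days. It read 33.5, 39.9 and 35.2 CPM in day 2 control libraries and 18.6, 22.6 and 25.0 in deficient ones, a difference of -0.70 ± 0.12 (adjusted p = 0.00235). On day 2.5 it read 29.4, 30.9 and 31.0 in controls against 12.1, 13.9 and 17.2, a difference of -1.07 ± 0.12 (adjusted p = 8.62e-06). On neither day did the genotypes overlap. Fgf8, which gastrulating mesoderm makes, fell on day 2.5 from 14.6, 13.1 and 12.6 CPM to 3.85, 3.22 and 5.29 (-1.69 ± 0.22, adjusted p = 2.52e-05). Fgf5, a marker of the primed epiblast, read 135, 135 and 149 CPM in day 2.5 controls and 85.5, 98.7 and 101 in deficient bodies, a fall of 0.56 ± 0.09 on the log2 scale (adjusted p = 0.000159).

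Fgf1 moved the other way on day 2.5. It encodes an FGF without a signal peptide that can bind every FGF receptor and is one of the known cargoes of the Fgfbp1 protein. Fgf1 read 8.39, 5.50 and 5.22 CPM in control libraries and 24.1, 23.8 and 20.2 in deficient ones, a rise of 1.82 ± 0.23 (adjusted p = 3.98e-05). On day 2 it read 5.12, 1.93 and 3.54 against 4.35, 2.87 and 2.83 CPM, with overlapping groups (-0.12, adjusted p = 0.851). Fgf18 also rose on day 2.5, from a low level: 0.656, 0.799 and 0.692 CPM in controls and 1.60, 2.12 and 1.61 in deficient bodies (1.31 ± 0.33, adjusted p = 0.00481). Fgf13, whose product stays inside the cell, fell by 0.43 ± 0.12 on the log2 scale (adjusted p = 0.00781).

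**Figure D2:**
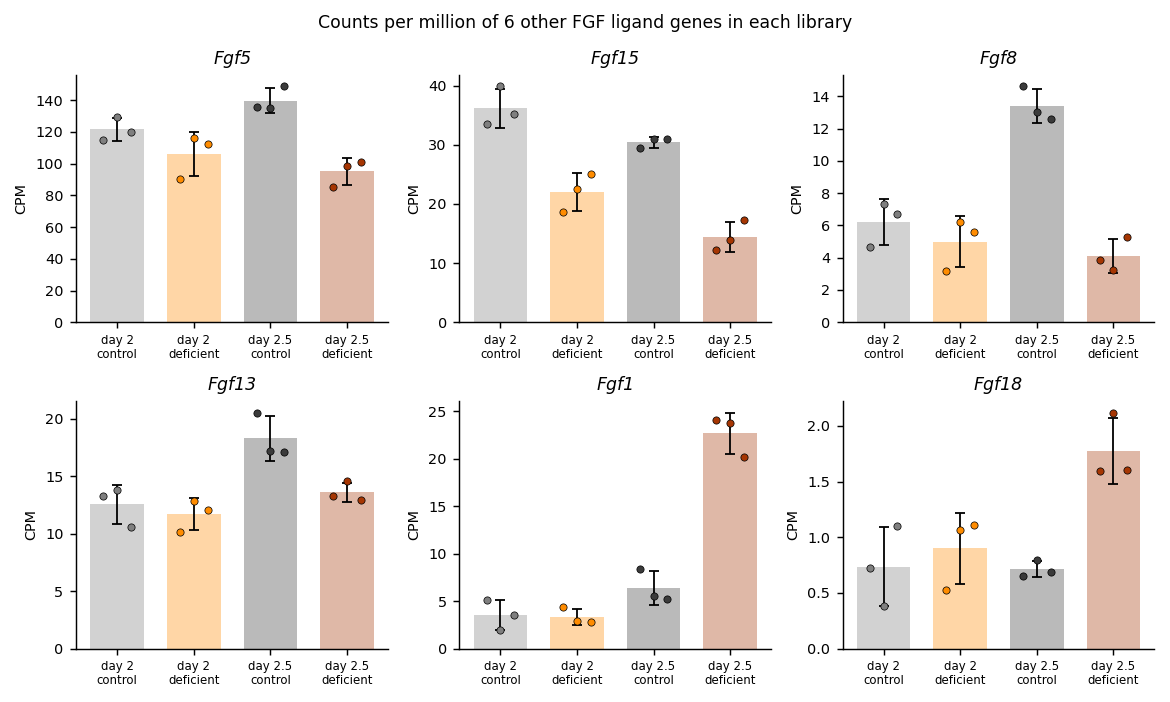
Levels of 6 other FGF genes in each library, in CPM on linear axes that start at 0, with the mean (bar) and SD (error bar) of each group of 3. In the day 2.5 Trim33-deficient libraries Fgf5, Fgf15 and Fgf8 lie below the controls of that day, and Fgf1 (20.2 to 24.1 CPM) and Fgf18 lie above them.

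Per kilobase of exon, Fgf4 remained the leading FGF gene in group means. Exon lengths came from the GENCODE M21 basic annotation of GRCm38, which is not the build of the counts, so levels per length are approximate. Fgf4 read 95.8 CPM per kb in day 2 controls, 84.2 in day 2 deficient bodies, 66.6 in day 2.5 controls and 68.4 in day 2.5 deficient bodies. Fgf5 came next in mean level with 48.6, 42.4, 55.8 and 38.0 CPM per kb in the same order. Of the summed level per kb of the 22 FGF genes, Fgf4 made up 52.6 ± 2.10%, 54.3 ± 3.70%, 40.4 ± 0.259% and 50.7 ± 0.802% (SD, n = 3). On day 2.5 the deficient libraries (49.9 to 51.5%) all lay above the controls (40.1 to 40.6%), while the difference of Fgf4 itself was within its spread and Fgf5, Fgf15 and Fgf8 were lower.

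Among the receptors, Fgfr1 fell and Fgfr2 and Fgfr4 rose in Trim33-deficient bodies on day 2.5, and none of the 4 passed on day 2. Counting Fgf4 with the receptors, edgeR called 0 of 5 genes on day 2, with 1 higher (Fgfr2) and 1 lower (Fgf4) at an unadjusted p under 0.05, and DESeq2 called 1, Fgf4. On day 2.5 it called 3 of 5, 2 higher and 1 lower, beside the backgrounds of 22.0% and 20.7% given above. The 3 calls of day 2.5 held in all 23 alternatives. On that day Rn45s took 1.08 to 1.67% of assigned reads in deficient libraries, 0.609 and 0.727% in control replicates 1 and 3 and 11.9% in control replicate 2, and its part in the receptor differences was not tested. Without the 2 libraries rich in Rn45s the day 2.5 differences of Fgfr2 and Fgfr4 were 0.77 and 1.23. For Fgfr1 the day 2.5 difference was -0.29 to -0.24 over all 23 alternatives, that fit among them.

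Fgfr1, the main FGF receptor gene of the epiblast, was the most abundant receptor gene per kb of exon. It read 200.1, 197 and 199 CPM in day 2 controls and 193, 201 and 189.7 in day 2 deficient bodies, and the groups overlapped. The difference was -0.03 ± 0.04, with a 95% interval of -0.13 to 0.06 (adjusted p = 0.691). On day 2.5 the controls read 226, 239 and 231 CPM and the deficient libraries 186, 193 and 199, with a clear gap between the groups. The fall was 0.27 ± 0.04 on the log2 scale, or 1.20-fold (95% interval -0.36 to -0.18, adjusted p = 0.000159). It was small but exceeded the spread, since the SDs were 6.89 and 6.05 CPM around means of 232 and 193. A short antisense gene overlaps Fgfr1 by 164 exon bases, and the strand setting of the counting is not given, so a few of its reads may be included.

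Fgfr2 came after it per kb. Day 2 control libraries read 25.4, 23.8 and 25.3 CPM and deficient libraries 25.7, 32.8 and 33.1. The deficient libraries were all higher, replicate 1 (the one rich in Rn45s) by very little. The difference was 0.31 ± 0.12 (95% interval 0.05 to 0.57, adjusted p = 0.130). At day 2.5 the controls read 28.6, 31.3 and 25.7 CPM and the deficient libraries 40.8, 42.4 and 55.1, again without overlap. The rise was 0.70 ± 0.12, or 1.63-fold (95% interval 0.45 to 0.95, adjusted p = 0.000242). Replicate 3 of the deficient group stood highest, and the rise was 0.55 without it (adjusted p = 0.0011).

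Fgfr4, a receptor gene known from liver and endoderm, was counted at 10 to 63 reads per library. Day 2 control libraries read 2.00, 3.63 and 2.36 CPM and deficient libraries 3.50, 3.37 and 3.87. The groups overlapped only through control replicate 2, a library with high hypoxia genes. The day 2 difference was 0.43 ± 0.23 (95% interval -0.07 to 0.92, adjusted p = 0.279). On day 2.5 the controls fell to 1.44, 0.888 and 1.32 CPM and the deficient libraries read 4.00, 2.85 and 2.91. The groups were well apart, and the difference was 1.38 ± 0.26, or 2.60-fold (95% interval 0.82 to 1.93, adjusted p = 0.000586).

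Fgfr3, known from cartilage and brain, was near the limit of what these libraries could resolve, at 11 to 34 reads. It read 1.04, 0.850 and 1.81 CPM in day 2 controls, 2.23, 1.37 and 1.66 in day 2 deficient bodies, 1.97, 1.95 and 1.57 in day 2.5 controls and 2.47, 2.49 and 1.96 in day 2.5 deficient bodies. The genotypes overlapped on both days. The differences were 0.46 ± 0.30 (95% interval -0.17 to 1.10, adjusted p = 0.369) on day 2 and 0.33 ± 0.26 (-0.22 to 0.88, adjusted p = 0.323) on day 2.5. A change of the size seen for Fgfr2 lay inside both intervals and was not detectable at this depth. A gene on the opposite strand overlaps Fgfr3 by 231 exon bases.

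**Figure D3:**
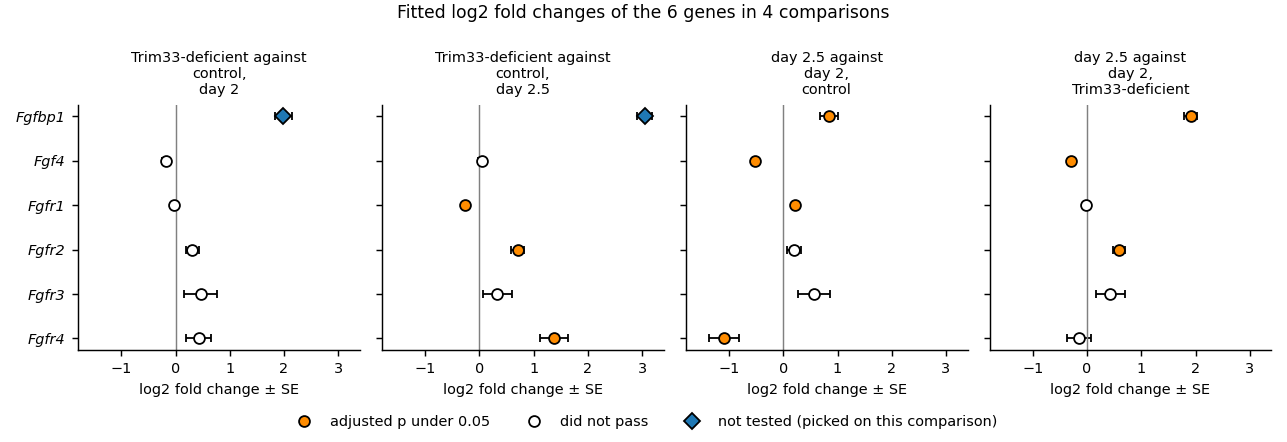
Log2 fold changes of the 6 genes with their standard errors in 4 comparisons: Trim33-deficient against control on each day, and day 2.5 against day 2 in each genotype. Orange points passed at an adjusted p under 0.05, white points did not, and the blue diamond marks Fgfbp1 where no test was made; Fgfbp1 stands at 1.99 and 3.05 in the genotype comparisons, against -0.27 to 1.38 for the other genes on day 2.5.

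The balance between receptor genes shifted on day 2.5. Of the summed level per kb of the 4 receptor genes, Fgfr1 made up 85.9 ± 0.275% in day 2 controls, 82.6 ± 1.55% in day 2 deficient bodies, 86.9 ± 0.862% in day 2.5 controls and 76.9 ± 1.83% in day 2.5 deficient bodies (SD, n = 3). Fgfr2 made up 11.7 ± 0.359%, 14.1 ± 1.68%, 11.6 ± 0.852% and 19.9 ± 2.28% in the same order. Fgfr4 made up 0.719% in day 2.5 controls and 2.05% in deficient bodies of that day, and Fgfr3 0.630 to 1.10% in all groups. The summed level was 51.2 ± 1.65 CPM per kb in day 2.5 controls and 48.0 ± 2.53 in deficient bodies. The ratio of Fgfr1 to Fgfr2 counts does not depend on the scaling of libraries. It was 8.01 ± 0.244 and 6.45 ± 0.938 on day 2, and 8.18 ± 0.705 and 4.24 ± 0.548 on day 2.5, control first. Day 2.5 controls lay between 7.66 and 8.98 and deficient libraries between 3.60 and 4.56, without overlap. The ratio was chosen after the values had been seen and was not tested.

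**Figure D4:**
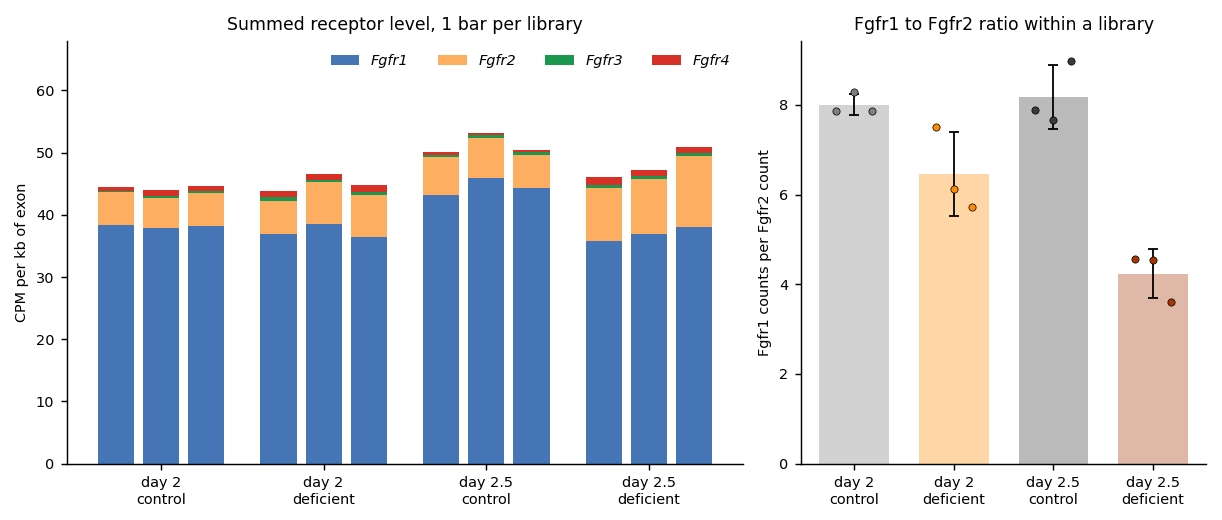
Stacked levels of the 4 receptor genes in each library, in CPM per kb of exon, and beside them the number of Fgfr1 counts per Fgfr2 count with the mean and SD of each group of 3. Fgfr1 fills most of every bar, and the ratio falls to between 3.60 and 4.56 in the day 2.5 Trim33-deficient libraries.

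The order of the levels per kb was the same for most members in the 4 groups. Fgf4 came first, then Fgfr1 (36.9 to 44.5 CPM per kb in group means), Fgfr2 (5.18 to 9.60), Fgfr4 (0.366 to 1.08) and Fgfr3 (0.280 to 0.524). Fgfr4 and Fgfr3 could not be ordered in day 2.5 controls, where Fgfr4 spanned 0.267 to 0.434 and Fgfr3 0.358 to 0.447. In the other 3 groups Fgfr4 lay above Fgfr3 in every library. Fgfbp1 was the member that changed place. It read 2.97 to 4.42 CPM per kb in day 2 controls, below Fgfr2 (4.96 to 5.30), and 6.08 to 7.97 in day 2.5 controls, overlapping Fgfr2 (5.36 to 6.51). In day 2 deficient bodies it read 13.6 to 17.6, above Fgfr2 (5.34 to 6.90). In day 2.5 deficient bodies it read 50.9 to 60.9, above Fgfr1 (35.7 to 38.1) and below Fgf4 (63.3 to 74.5).

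Between day 2 and day 2.5, 4 of the 6 genes changed in control bodies and 3 of 6 in Trim33-deficient bodies, with the picked gene Fgfbp1 in both counts. Of the 5 genes other than Fgfbp1, 1 rose and 2 fell in controls, and 1 rose and 1 fell in deficient bodies. The background was 8.20% higher and 7.91% lower in controls, and 9.09% higher and 6.93% lower in deficient bodies. Fgf4 fell in both genotypes, by 0.53 ± 0.06 on the log2 scale in controls (adjusted p = 5.83e-05) and by 0.30 ± 0.06 in deficient bodies (adjusted p = 0.00316). Fgfbp1 rose in both, by 0.85 ± 0.16 (adjusted p = 0.00351) and 1.91 ± 0.12 (adjusted p = 8.32e-07). The same libraries served to pick it, so these p-values are not independent of the pick. Fgfr1 rose in controls by 0.22 ± 0.04 (adjusted p = 0.00312), and its difference in deficient bodies was -0.01 ± 0.04 (adjusted p = 0.874). Fgfr2 rose in deficient bodies by 0.59 ± 0.12 (adjusted p = 0.00369). In controls its difference was 0.19 ± 0.12, with a 95% interval of -0.07 to 0.46 (adjusted p = 0.312).

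Fgfr4 fell in controls by 1.10 ± 0.27 on the log2 scale (adjusted p = 0.0131), and its difference in deficient bodies was -0.15 ± 0.22 (adjusted p = 0.703). The fall in controls rested in part on day 2 control replicate 2, the highest of its group. Without that library it was -0.81 (adjusted p = 0.0613), and without the libraries that stood apart -0.66 (adjusted p = 0.163). With the compared libraries alone the adjusted p was 0.051, and without the 2 libraries rich in Rn45s the fall was 0.95 on the log2 scale (adjusted p = 0.0513). Fgfr3 passed in neither genotype (0.56 ± 0.29 in controls, adjusted p = 0.217, and 0.43 ± 0.26 in deficient bodies, adjusted p = 0.292).

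The interaction term asks whether the genotype difference itself differed between the days, and 1 of 5 genes passed, beside a background of 4.01% in either direction. For Fgfr1 the genotype difference was lower on day 2.5 by 0.24 ± 0.06 on the log2 scale (adjusted p = 0.0445). The call was lost in 11 of 22 alternatives, with differences of -0.26 to -0.21 and adjusted p up to 0.139. Leaving out day 2 control replicate 1 or 3, day 2 deficient replicate 2 or 3, day 2.5 control replicate 2 or 3, or day 2.5 deficient replicate 1 or 2 each ended it. The other terms were 0.23 ± 0.08 for Fgf4 (adjusted p = 0.138), 0.39 ± 0.17 for Fgfr2 (0.202), 0.95 ± 0.35 for Fgfr4 (0.138) and -0.13 ± 0.40 for Fgfr3 (0.889). For Fgfbp1 the term was 1.06 ± 0.21, given without a test because its size on both days served the pick.

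Co-receptors and carriers of FGFs are proteins that sit beside the receptor or ferry the ligand, and 9 of 10 listed were tested besides Fgfbp1. On day 2, 2 rose and 0 fell (0 fell at an unadjusted p under 0.05, and 0 by DESeq2). On day 2.5, 3 rose and 0 fell (1 lower at an unadjusted p under 0.05, and 0 by DESeq2). Without day 2 control replicate 1 or 2 or day 2.5 control replicate 1, 1 fell. The median log2 difference was 0.14 and 0.23. Among all genes tested 5.94% rose and 3.90% fell on day 2, and 22.0% rose and 20.7% fell on day 2.5. Cdh2, the cadherin that can bind FGFR1, read 10.2, 7.57 and 8.73 CPM in day 2 controls and 15.5, 13.7 and 14.6 in deficient bodies (0.72 ± 0.15, adjusted p = 0.0097). On day 2.5 it read 10.3, 7.37 and 8.18 against 19.1, 14.2 and 14.3 (0.87 ± 0.15, adjusted p = 0.000252). Flrt2, a membrane protein that binds FGF receptors, rose by 0.84 ± 0.19 on day 2.5 (adjusted p = 0.00253). Its rise on day 2 (0.75 ± 0.22, adjusted p = 0.0435) was lost in 12 of 23 alternatives, including each fit without 1 of the 6 day 2 libraries, so that 1 gene, Cdh2, then rose. Fgfbp3, the other carrier gene tested, differed by 0.35 ± 0.21 on day 2.5 and did not pass (adjusted p = 0.202).

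Heparan sulfate is the sugar chain that holds FGFs and completes their receptor complex. Of 36 tested genes of its core proteins and enzymes, 5 rose and 0 fell on day 2 (1 lower at an unadjusted p under 0.05, 0 by DESeq2), and 9 rose and 9 fell on day 2.5. Over all genes tested 5.94% rose and 3.90% fell on day 2, and 22.0% rose and 20.7% fell on day 2.5, so the day 2.5 counts were near the background. Without day 2 deficient replicate 1 the rises on day 2 were 3, and without day 2.5 deficient replicate 1 the falls on day 2.5 were 5. The medians were 0.07 and 0.04. The core protein gene Sdc4 read 95.0, 83.2 and 89.5 CPM in day 2 controls and 143, 139.8 and 143 in deficient bodies (0.67 ± 0.06, adjusted p = 4.3e-06). On day 2.5 it read 86.0, 95.4 and 86.0 against 212, 199 and 199.6 (1.19 ± 0.06, adjusted p = 1.2e-09), and no deficient library overlapped a control. Sulf1 and Sulf2 encode enzymes that trim sulfate groups from the chain, and both rose on both days. On day 2 the rises were 0.37 ± 0.09 (adjusted p = 0.0245, lost in 2 of 23 alternatives) and 0.42 ± 0.05 (adjusted p = 6.95e-05). On day 2.5 they were 0.59 ± 0.09 (adjusted p = 0.00021) and 0.27 ± 0.05 (adjusted p = 0.000184). The sulfate-adding enzyme gene Hs3st3b1 rose by 1.39 ± 0.24 on day 2.5 (adjusted p = 0.000273). The core protein genes Sdc1 and Gpc1 fell on that day, by 0.58 ± 0.08 (adjusted p = 3.51e-05) and 0.33 ± 0.05 (adjusted p = 0.000139) on the log2 scale.

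Of 29 tested genes for adaptors and the RAS-ERK core, 3 rose and 0 fell on day 2 (2 lower at an unadjusted p under 0.05, and 2 by DESeq2), and 8 rose and 10 fell on day 2.5, against 5.94% and 3.90% of all genes on day 2 and 22.0% and 20.7% on day 2.5. Without day 2 control replicate 1 or day 2 deficient replicate 1, 1 rose on day 2. The medians were 0.01 and -0.07. Frs2, the docking protein through which FGF receptors reach RAS, read 79.1, 73.6 and 79.3 CPM in day 2 controls and 97.8, 90.3 and 91.9 in deficient bodies (0.27 ± 0.06, adjusted p = 0.0101). On day 2.5 it read 83.9, 86.4 and 76.1 against 124, 122 and 121 (0.57 ± 0.06, adjusted p = 2.06e-06), with the deficient libraries all above the controls. Gab1, another docking protein, rose on day 2.5 by 0.34 ± 0.06 (adjusted p = 0.000524).

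Genes that ERK switches on, many of them its inhibitors, stood mostly higher on day 2.5. Of 20 tested, 3 rose and 0 fell on day 2 (0 fell at an unadjusted p under 0.05, and 0 by DESeq2), with a median of 0.09. Over all genes tested 5.94% rose and 3.90% fell on that day, and 22.0% rose and 20.7% fell on day 2.5. Of the 20 genes, 12 rose and 1 fell on day 2.5, with a median of 0.47 against -0.0096 over all genes tested. The falls were 2 without day 2 control replicate 2, day 2.5 control replicate 1 or day 2.5 deficient replicate 3. The day 2 rises were 1 in 5 of the 12 fits that left out 1 library: day 2 control replicate 2 or 3, day 2 deficient replicate 1 or 2, or day 2.5 deficient replicate 2. Dusp4 rose on both days, by 0.57 ± 0.11 on day 2 (adjusted p = 0.0087) and 0.72 ± 0.11 on day 2.5 (adjusted p = 0.00021). On day 2.5 Fosl1 and Fos, both parts of the AP-1 factor, rose by 1.32 ± 0.22 (adjusted p = 0.000174) and 1.39 ± 0.24 (adjusted p = 0.000241). Both stood low, with day 2.5 means of 1.93 and 2.22 CPM in controls and 4.80 and 5.83 in deficient bodies. Etv1, an Ets factor, rose by 0.91 ± 0.13 (adjusted p = 5.15e-05), and the inhibitor Spry2 by 0.64 (adjusted p = 0.000818). Il17rd, an inhibitor that acts at the receptor, fell by 0.32 ± 0.07 on the log2 scale (adjusted p = 0.00109).

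FGF receptors are spliced into forms that bind different ligands, and gene counts do not show which form was made. Of 9 tested regulators of that choice, 1 rose (Esrp2) and 1 fell (Hnrnpa1) on day 2, each lost in some of the fits without 1 library, and 3 rose and 3 fell on day 2.5. The medians were -0.06 and -0.09. Of all genes tested, 5.94% rose and 3.90% fell on day 2, and 22.0% rose and 20.7% fell on day 2.5. Esrp2, an epithelial splicing regulator of Fgfr2, differed on day 2.5 by 0.49 ± 0.11 (adjusted p = 0.00198), and its relative Esrp1 by 0.02 (adjusted p = 0.840). Rbfox2 and Mbnl1 rose, and Tia1, Srsf1 and Tial1 fell. The 6 pathway lists held 114 tested genes, of which 16 were called on day 2 and 65 on day 2.5, beside 1413 and 6143 of all 14356 genes. The 16 calls became 8 without day 2 deficient replicate 1, where the calls over all genes became 514, 9 without day 2 deficient replicate 2 and 10 without day 2 control replicate 3. The 65 calls of day 2.5 became 54 to 66 when any 1 library was left out.

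**Figure D5:**
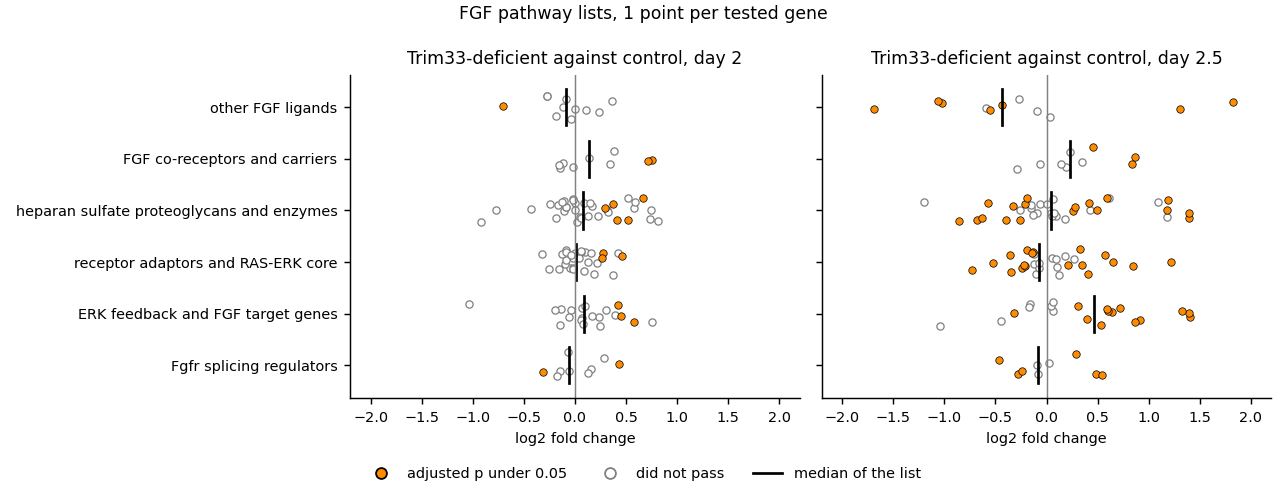
Log2 fold changes of Trim33-deficient against control bodies on day 2 and day 2.5 for each tested gene of 6 FGF pathway lists; each point is a gene, spread vertically for display, and the bar is the list's median. On day 2.5 the median of ERK feedback and target genes stands at 0.47 and that of the other FGF genes at -0.43.

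Markers of the naive state and of other cell types moved alongside these genes. As a background for the counts below, 5.94% of all genes tested rose and 3.90% fell on day 2. On day 2.5, 22.0% rose and 20.7% fell. All 7 naive markers rose on day 2.5 and 4 of 7 on day 2. Their summed level ranged over 166 to 182 CPM in day 2 controls, 269 to 378 in day 2 deficient bodies, 103 to 119 in day 2.5 controls and 348 to 455 in day 2.5 deficient bodies. Of 11 trophoblast markers, which bear on Fgfr2, 1 rose on day 2 (Tfap2c, by 1.33) and 0 fell (0 fell at an unadjusted p under 0.05, and 0 by DESeq2). On day 2.5, 6 rose and 1 fell, with a median log2 difference of 1.11. The summed levels overlapped on that day (104 to 169 CPM in controls, 137 to 181 in deficient bodies). The mean of the markers' log2 levels, each taken from its own mean over all libraries, did not overlap, at -0.35 to -0.09 in controls and 0.37 to 0.86 in deficient bodies, with Elf5 at 2 reads in all 12 libraries together. Of 12 primitive endoderm markers, which bear on Fgfr2 and Fgfr4, 3 rose and 3 fell on day 2.5, near the background. Their summed levels overlapped at 328 to 382 and 314 to 329 CPM, with Afp at 6 reads and Sox7 at 51 in all. Of 5 squamous epithelial markers tested, which bear on Fgfbp1, 2 rose on day 2 (Perp, by 0.93, and Dsp, by 0.57) and 0 fell (0 fell at an unadjusted p under 0.05, and 0 by DESeq2). On day 2.5, 3 rose, Perp by 1.49, Dsp by 0.63 and Sfn by 0.69, and Cdh1 fell. Their sums, most of which was Cdh1, were 1033 to 1096 CPM in day 2.5 controls and 931 to 993 in deficient bodies. Their mean log2 levels ran the other way, at -0.04 to -0.03 in controls and 0.43 to 0.54 in deficient bodies, without overlap. Krt5, Krt14 and Trp63 had 19, 49 and 10 reads in all libraries together. Of 6 primitive streak markers, Fgf8 among them, 4 fell on day 2.5 and 0 rose (0 rose at an unadjusted p under 0.05, and 0 by DESeq2). Of 6 epiblast markers, Fgf5 among them, 1 rose and 2 fell on day 2.5. Of 5 fibroblast markers tested, 1 rose and 3 fell on that day. The part of these markers in the FGF gene differences was not tested.

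The members varied together in different ways over the 12 libraries. These correlations of log2 CPM describe libraries that share genotype, day and scaling, and are given without a test. Fgfbp1 followed Fgfr2 (Pearson r = 0.89), and Fgfr1 ran opposite to Fgfr4 (r = -0.94). Among 13484 other genes with a mean CPM of at least 1, the profiles most like that of Fgfbp1 were Klhl42 (r = 0.989), Ctgf (0.987), Rlim (0.986), Plce1 (0.985) and Prex2 (0.984). The genotype differences of those 5 genes were smaller, at 0.38 to 1.57 on day 2 and 0.70 to 1.77 on day 2.5 on the log2 scale. Closest to Fgf4 were Tdrd12 (0.975), Pole (0.967) and Cnot10 (0.961), and closest to Fgfr1 were Moxd1 (0.984), Jph3 (0.969) and Tpm4 (0.968). Closest to Fgfr2 were Zfp317 (0.969), C130021I20Rik (0.936) and Tbx20 (0.935). Close to Fgfr4 were Tmem40 (0.939) and Fetub (0.938). The best for Fgfr3, at its low counts, were Iqsec2 (0.905), Itga4 (0.904) and Armc9 (0.897).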

How the data were processed

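Each library has 1 deposited table of raw counts by gene symbol. Per the submitters' processing notes the authors used STAR, HTSeq and DESeq with mm9. For versions, annotation, strand setting and multi-mapping reads, details were not given in the sources used here. Rows that name no gene stayed out of library sizes and tests, and reads in no feature were 55.9 to 60.5% of all. In 1 library 27 symbols that a spreadsheet had turned into dates were restored by row position.

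Of 24015 gene rows, 19581 had a count and 14356 passed filterByExpr. Tests used edgeR 4.0.16 (R 4.3.3) with TMM factors and its robust quasi-likelihood model with 1 mean per group, 4 groups and 12 libraries (8 residual degrees of freedom, no block), and Benjamini-Hochberg adjustment over all genes tested, threshold 0.05. DESeq2 1.42.0 was an alternative, beside other scalings, filters, replicate blocks and fits without single libraries. The script was tested on simulated counts. Gene order, promoters and overlaps came from RefSeq GRCm38.p6 and GENCODE M21.

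The members and lists were chosen with earlier results of these data known. Genes named were the members, the list members with the smallest adjusted p (up to 6 that passed, 3 for markers), the most abundant ligands, the closest profiles (5 for Fgfbp1, 3 for the others) and chromosomal neighbours. Not every gene that this rule returned is reported here, and those printed were picked with their values seen.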

Additional observations from a re-analysis of the deposited data

Results flagged for a closer look

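Of 119 genes searched, the 5 members other than Fgfbp1 and 114 tested genes of the pathway lists, 8 passed edgeR's interaction test (adjusted p under 0.05), which compares the genotype difference of day 2.5 with that of day 2. Over all 14356 genes tested 4.01% passed. Among the members this was Fgfr1, with -0.24 (adjusted p = 0.0445), which was lost in 11 of 22 alternatives. Among the other FGF genes it was Fgf1, with 1.94 (adjusted p = 0.0181), and Fgf8, with -1.41 (0.0252). For Fgf1 the genotypes overlapped on day 2 and were far apart on day 2.5. Among heparan sulfate genes it was Sdc4, with 0.52 (0.00388), and Gpc1, with -0.31 (0.0327). Among adaptors it was Frs2, with 0.31 (0.0462), Gab1, with 0.39 (0.0287), and Shc2, with -0.50 (0.0182). All values are on the log2 scale. The term of Sdc4 passed in all 22 alternatives, that of Shc2 was lost in 3, Fgf1 in 5, Fgf8 in 6, Gpc1 and Gab1 in 8 each, and Frs2 in 9.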

How the results depend on the processing

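On day 2.5, 3 members were called in every alternative, and on day 2 between genotypes 0 were called. There 1 member, Fgf4, was called with upper-quartile factors, with DESeq2, and in the fit with a replicate block over all libraries, and 0 to 1 when single libraries were left out. For the interaction, 1 member was called. It was 0 with RLE factors, 0 with a replicate block within day, 0 without the 2 libraries rich in Rn45s, and 0 to 1 when single libraries were left out. The pathway lists gave 16 calls on day 2 and 8 to 19 without single libraries, and 65 calls on day 2.5 and 54 to 66. The cause was not tested. Fits without the libraries that stood apart and without the Rn45s row were chosen after seeing the data. Same-numbered libraries correlated in their deviations at -0.079 to 0.172 between genotypes. Between days these correlations were 0.365, 0.451 and 0.032 in controls and 0.182, -0.018 and 0.088 in deficient bodies. Between control replicates 1 and 2 with the numbers crossed they were -0.367 and -0.446. Not every pair exceeded 0.1, so the numbers were not taken as pairs, which does not show that pairing was absent. Between genotypes on day 2, 1413 genes were called without a block. It was 1870 with a replicate block over all libraries and 1274 with a block within day. The replicate block over all libraries left the 4 and 3 member calls between days as they were. Both counts include the picked gene Fgfbp1. Counts of 11 to 34 reads limit Fgfr3.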

Other observations

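Genes beside the members on the chromosome, in RefSeq order on GRCm38.p6, are given as values. Over all genes tested 5.94% rose and 3.90% fell on day 2, and 22.0% rose and 20.7% fell on day 2.5. Next to Fgfbp1, Cd38, which encodes an enzyme of NAD metabolism, rose on day 2.5 by 1.05 ± 0.19 on the log2 scale (adjusted p = 0.000718, edgeR), and its relative Bst1 by 1.26 ± 0.38 (adjusted p = 0.0136). Prom1, on the other side of Fgfbp1, fell by 0.58 ± 0.12 (adjusted p = 0.00123). On day 2 none of these 3 passed, with 0.57 for Cd38 (adjusted p = 0.0823) and 0.46 for Bst1 (0.458). Fgf4 lies between 2 other FGF genes, Fgf3 and Fgf15. Fgf3 differed by 0.03 on day 2.5 (adjusted p = 0.936). The difference of Fgf15 was -0.70 ± 0.12 on day 2 (adjusted p = 0.00235) and -1.07 ± 0.12 on day 2.5 (adjusted p = 8.62e-06). Beyond Fgf3, the chloride channel gene Ano1 fell on day 2.5 by 1.70 ± 0.32 (adjusted p = 0.000515). Next to Fgfr4, Nsd1, which encodes a histone methyltransferase, rose on day 2.5 by 0.49 ± 0.07 (adjusted p = 9.25e-05). Ate1, next to Fgfr2, rose on that day by 0.23 ± 0.06 (adjusted p = 0.00811). The other tested neighbours passed on neither day: Tacc1, Letm2, Wdr11, Tmem129, Tacc3, Letm1, Zfp346 and Rab24.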
